A study of Mus musculus with 6 samples.

Results

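The genes of the mouse mitochondrial chromosome were followed across calf muscle of aged mice that differed in diet and in the time of collection. Members were all genes whose symbol begins with mt-, which are 37 genes in the annotation. They are 13 protein-coding genes, each called an mRNA here, 2 rRNAs and 22 tRNAs. The deposited table held 18 of them among its 26294 genes: all 13 mRNAs, both rRNAs, and 3 tRNAs (mt-Tn, mt-Tc and mt-Tp). The remaining 19 tRNAs were not analysed here.

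The samples were mixed gastrocnemius and soleus muscle of male C57BL/6 mice, 24 to 26 months old at collection, with no genetic change. HF.NOB mice received a high-fat diet with 0.1% Nobiletin (NOB, a citrus flavonoid that the study uses as an enhancer of the circadian clock). HF mice received the high-fat diet alone and RD mice a regular diet. Feeding lasted 5 to 6 months by the labels. By the study's methods the high-fat diets came from the same supplier and the regular diet from another. Comparisons with RD are therefore between whole diets, not fat content alone. Muscle was taken at ZT18, in the dark phase when mice are active, and at ZT6, in the light phase, where ZT is zeitgeber time in hours after lights on. Each of the 6 conditions had 1 library, so no difference between conditions has a replicate check. The labels do not state how many animals contributed to a library. The deposited values are named as mean results, and the study gives replicates for its RNA-seq. With 1 column per condition in the table, any spread between animals was not analysed here.

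Mammalian mitochondria carry their own small circular genome in many copies per cell. Both of its strands are transcribed into long precursors, from which the tRNAs are cut out so that the mRNAs and rRNAs between them are released. The rRNAs build the mitochondrial ribosome, and the mRNAs encode core subunits of respiratory complexes CI, CIII and CIV and of the ATP synthase (CV), whose other subunits are encoded in the nucleus. Skeletal muscle, above all its oxidative fibres, is rich in these transcripts.

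Values are scaled read counts, that is, whole reads multiplied by 1 factor per library. The libraries held 23248663 to 31837501 reads on genes, and 1 read was worth between 0.956 and 1.33 units. Summed markers of the skeletal muscle fibre (Acta1, Ckm, Myh4 and Tnnt3) lay between 2910521 and 4025298 in the 6 libraries, and all 4 were abundant in each. Markers of other cells were uneven. The 4 red blood cell globins summed to 14029 in the HF.NOB library at ZT6, against 1493 to 5138 in the others, and the 4 adipocyte markers to 4657 there, against 1069 to 2330. Of the adipocyte markers Adipoq, Plin1 and Cfd were highest in that library, while Lep had 577 there and was highest in HF at ZT18, at 801. The 4 liver markers (Alb, Apob, Cyp3a11 and Gc) summed to 1369 in the HF library at ZT18, against 1.33 to 9.56 elsewhere, where Cyp3a11 was at 0 and Gc was at 0 in all but 1. The 5 macrophage and leukocyte markers summed to 2753 in the HF.NOB library at ZT6, the highest sum, against 1398 to 2386 in the others. The part of these cells in the results was not tested, and in bulk muscle fewer cells of a type and less RNA per cell cannot be told apart.

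Some members share sequence with each other. By the annotation (GENCODE M21 on GRCm38, Ensembl positions on chromosome M), mt-Atp8 (7766 to 7969) and mt-Atp6 (7927 to 8607) overlap by 43 bases, mt-Nd4l (9877 to 10173) and mt-Nd4 (10167 to 11544) by 7, and mt-Nd5 (11742 to 13565) and mt-Nd6 (13552 to 14070, on the opposite strand) by 14. These junctions are shown because the positions in capitals lie in both genes, for mt-Nd5 and mt-Nd6 on opposite strands. How reads on them were counted is not given in the sources used here. Each is written 5′ to 3′ on the plus strand, with the shared bases in capitals.
mt-Atp8 to mt-Atp6: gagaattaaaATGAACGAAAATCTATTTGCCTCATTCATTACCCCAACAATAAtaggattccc
mt-Nd4l to mt-Nd4: acctactacaATGCTAAaaattattct
mt-Nd5 to mt-Nd6: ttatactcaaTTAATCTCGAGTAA

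In the first of these sequences the capitals open with the ATG start codon of mt-Atp6 and close with the end of mt-Atp8, and in the second they hold the ATG of mt-Nd4. Of the 13 coding sequences, 9 open with ATG, while mt-Nd1 opens with GTG, mt-Nd2 with ATA, mt-Nd3 with ATT and mt-Nd5 with ATC. Only mt-Nd6 is encoded on the minus strand, and its sequence holds 28.1% G and 5.97% C, against 5.88 to 16.1% G and 22.1 to 29.97% C in the other 12. Whether the library kept the strand of the RNA is not given in the sources used here, so reads of mt-Nd6 and reads antisense to it cannot be told apart.

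Others share sequence with the nucleus. A block of nuclear pseudogenes on chromosome 1 (positions 24611535 to 24616197, minus strand) repeats a long stretch of the mitochondrial genome. Its copies match mt-Co2, mt-Atp6, mt-Co3, mt-Nd3 and mt-Nd4l over nearly their whole length, at 100% identity except for mt-Nd3 and its copy Gm28438, which match at 99.7% over 345 bases. The same block covers 876 of the 1378 bases of mt-Nd4 at 100% and 483 of the 1545 bases of mt-Co1 at 99.8%, while mt-Nd1, mt-Nd5, mt-Nd6 and mt-Cytb, both rRNAs and mt-Nd2 have no match of that quality. mt-Atp8 shares only its overlap with mt-Atp6. The lines below show the single substitutions, in capitals, that set a member apart from its chromosome 1 copy, T3C in mt-Nd3 and A1066T in mt-Co1, counted from the first base of the member.
mt-Nd3: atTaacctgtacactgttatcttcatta
Gm28438: atCaacctgtacactgttatcttcatta
mt-Co1: ggaAttgttttatccaactcatcccttga
Gm29216: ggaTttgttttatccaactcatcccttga

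Members with and without a full-length copy differed in level by orders of magnitude. The 8 mRNAs without one had means over the 6 libraries between 40003 (mt-Atp8) and 868535 (mt-Co1). The 5 with one had means between 63.6 (mt-Co3) and 634 (mt-Nd4l). Together these 5 took 0.00480 to 0.00730% of all reads in a library, while the other 8 took 7.41 to 10.3%. How reads that fit several positions were counted is not given in the sources used here, and its part in these low values was not tested. The 5 are reported as uncertain throughout.

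**Figure D1:**
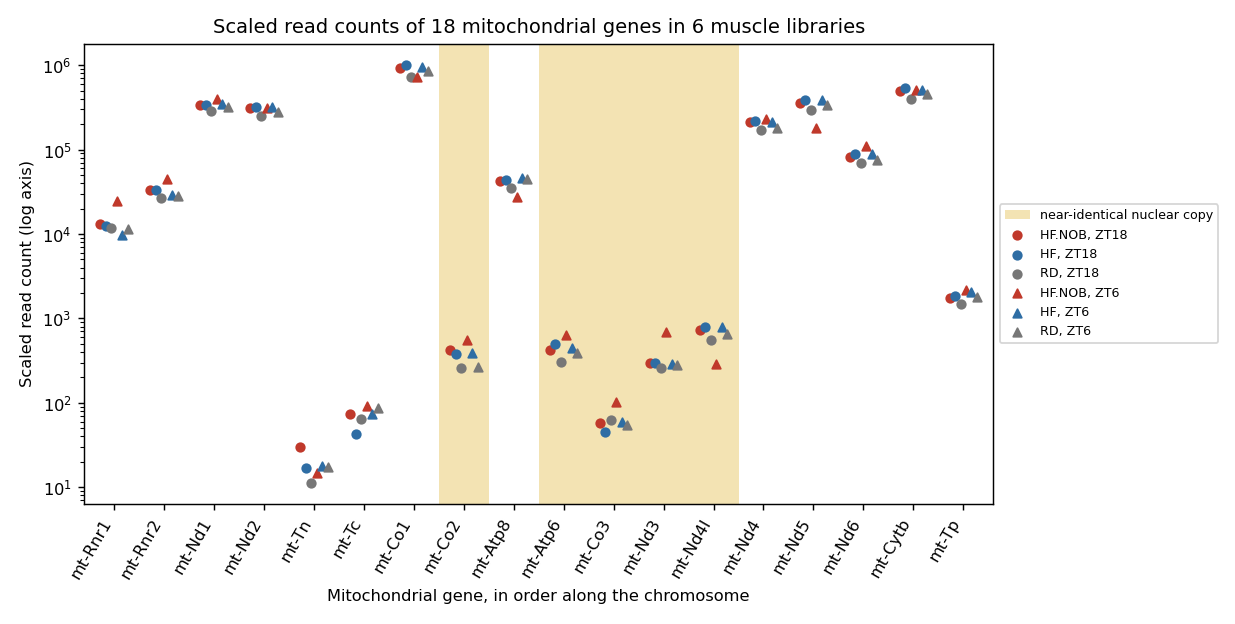
Scaled read counts (log axis) of the 18 members in the order of their genes along the chromosome, with 1 point per library, circles for ZT18 and triangles for ZT6. The 5 mRNAs on a shaded ground have a near-identical nuclear copy and lie at or below 792, while the other 8 mRNAs lie at or above 27755.

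Per kilobase of gene, the order of mean levels among the 8 was mt-Co1 (562158 scaled counts per kilobase), mt-Cytb (421126), mt-Nd1 (354335), mt-Nd2 (288756), mt-Atp8 (196091), mt-Nd5 (177754), mt-Nd6 (165081) and mt-Nd4 (147095). The place of mt-Nd4 depends on its copy, since it stood at 403779 when divided by only the bases outside the copy. mt-Co1 was first either way, at 817829 outside its copy. mt-Rnr2 and mt-Rnr1 were far lower, at 20593 and 14570 per kilobase. These values describe reads in the libraries, and the part of RNA selection before sequencing in the low rRNA values was not tested. By mean scaled count, 5 members were among the 20 most abundant genes of the table, namely mt-Co1, mt-Cytb, mt-Nd1, mt-Nd5 and mt-Nd2.

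All 18 members together took 9.28% of the reads in HF.NOB, 10.47% in HF and 7.55% in RD muscle at ZT18, with exact 95% binomial intervals of 9.27 to 9.29%, 10.46 to 10.48% and 7.54 to 7.56%. Their share was 8.31% in HF.NOB, 9.75% in HF and 8.17% in RD muscle at ZT6, with intervals of 8.30 to 8.32%, 9.74 to 9.76% and 8.16 to 8.18%. Thus HF muscle gave the highest share of reads at each time and RD the lowest. In summed scaled values RD was not the lowest at ZT6, with 2580288 against 2575854 in HF.NOB. These intervals and all those below describe counting error alone, because each condition had 1 library. Without molecular identifiers several reads can stem from 1 molecule, so the counting error can be larger than shown. The rRNAs took 0.125 to 0.225% and the 3 tRNAs 0.00519 to 0.00742%.

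The subunits of CI (NADH dehydrogenase, where electrons from NADH enter the chain) are described first. mt-Nd1 had 339576 in HF.NOB, 338354 in HF and 283211 in RD muscle at ZT18, and 399598 in HF.NOB, 350584 in HF and 323270 in RD muscle at ZT6. mt-Nd2 had 314157 in HF.NOB, 322762 in HF and 248526 in RD muscle at ZT18, and 313902 in HF.NOB, 322503 in HF and 276523 in RD muscle at ZT6. For mt-Nd4 the values were 209654 in HF.NOB, 216063 in HF and 169046 in RD muscle at ZT18, and 228016 in HF.NOB, 213059 in HF and 180345 in RD muscle at ZT6. In these 3 genes the RD library was the lowest at each time, and the highest value of the 6 was 1.30 to 1.41 times the lowest.

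mt-Nd5 stood apart. It had 360468 in HF.NOB, 391446 in HF and 296037 in RD muscle at ZT18, and 179271 in HF.NOB, 384125 in HF and 333998 in RD muscle at ZT6. The HF.NOB library at ZT6 was below all others, which spanned 1.32-fold. Its neighbour on the opposite strand, mt-Nd6, had 82085 in HF.NOB, 87562 in HF and 68751 in RD muscle at ZT18, and 111109 in HF.NOB, 88654 in HF and 75901 in RD muscle at ZT6. Here the same library was the highest.

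Of the CI subunits with a nuclear copy, mt-Nd4l had 729 in HF.NOB, 792 in HF and 557 in RD muscle at ZT18, and 288 in HF.NOB, 789 in HF and 651 in RD muscle at ZT6. mt-Nd3 had 294 in HF.NOB, 300 in HF and 256 in RD muscle at ZT18, and 688 in HF.NOB, 290 in HF and 279 in RD muscle at ZT6. These neighbours along the chromosome thus took opposite extremes in the HF.NOB library at ZT6.

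mt-Cytb, the only mitochondrial subunit of CIII, had 492524 in HF.NOB, 532333 in HF and 396360 in RD muscle at ZT18, and 508845 in HF.NOB, 510502 in HF and 450046 in RD muscle at ZT6. mt-Co1, the catalytic core of CIV that reduces oxygen, had 933290 in HF.NOB, 1009502 in HF and 722290 in RD muscle at ZT18, and 733036 in HF.NOB, 960380 in HF and 852710 in RD muscle at ZT6. mt-Cytb was the lowest in RD at each time, while for mt-Co1 the HF.NOB library was the lowest at ZT6.

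The other CIV mRNAs both have a nuclear copy. mt-Co2, which takes electrons from cytochrome c, had 427 in HF.NOB, 380 in HF and 260 in RD muscle at ZT18, and 553 in HF.NOB, 384 in HF and 266 in RD muscle at ZT6. mt-Co3 had 58.3 in HF.NOB, 45.1 in HF and 62.2 in RD muscle at ZT18, and 101 in HF.NOB, 59.9 in HF and 54.7 in RD muscle at ZT6. mt-Co2 kept the order HF.NOB, HF, RD at both times, and mt-Co3 did not.

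The CV members encode parts of the membrane-embedded proton channel side of ATP synthase. mt-Atp8 had 42156 in HF.NOB, 44085 in HF and 35309 in RD muscle at ZT18, and 27755 in HF.NOB, 46298 in HF and 44413 in RD muscle at ZT6. mt-Atp6, which has a nuclear copy, had 425 in HF.NOB, 497 in HF and 303 in RD muscle at ZT18, and 631 in HF.NOB, 448 in HF and 388 in RD muscle at ZT6. The HF.NOB library at ZT6 was the lowest of the 6 for mt-Atp8 and the highest for mt-Atp6. Because the values of mt-Atp6 are uncertain, opposite changes of these overlapping genes cannot be read from this.

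The rRNA of the small subunit of the mitochondrial ribosome, mt-Rnr1 (70 to 1024), had 12968 in HF.NOB, 12580 in HF and 11874 in RD muscle at ZT18, and 24895 in HF.NOB, 9753 in HF and 11415 in RD muscle at ZT6. That of the large subunit, mt-Rnr2 (1094 to 2675), had 33542 in HF.NOB, 33251 in HF and 26794 in RD muscle at ZT18, and 44866 in HF.NOB, 28868 in HF and 28145 in RD muscle at ZT6. Both were highest in the HF.NOB library at ZT6.

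The 3 tRNAs of the table are encoded on the minus strand, as are 8 of all 22. Their sequences are shown, 5′ to 3′, because at 66 to 71 bases they are the shortest members. Mature tRNA and its precursor cannot be told apart in their values.
mt-Tn: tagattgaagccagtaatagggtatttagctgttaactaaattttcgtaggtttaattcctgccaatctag
mt-Tc: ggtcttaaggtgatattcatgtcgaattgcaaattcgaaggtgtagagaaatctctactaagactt
mt-Tp: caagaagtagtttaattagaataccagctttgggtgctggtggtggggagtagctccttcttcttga

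mt-Tp, the proline tRNA, had 1745 in HF.NOB, 1854 in HF and 1479 in RD muscle at ZT18, and 2194 in HF.NOB, 2061 in HF and 1779 in RD muscle at ZT6. mt-Tc, the cysteine tRNA, had 73.6 in HF.NOB, 42.8 in HF and 64.5 in RD muscle at ZT18, and 90.7 in HF.NOB, 72.9 in HF and 86.7 in RD muscle at ZT6. mt-Tn, the asparagine tRNA, had 29.6 in HF.NOB, 16.9 in HF and 11.3 in RD muscle at ZT18, and 14.7 in HF.NOB, 17.97 in HF and 17.3 in RD muscle at ZT6. Of the 3, only mt-Tp was lowest in RD at each time.

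The high-fat diet was compared with the regular diet at each time. Folds are differences of log2 of the value plus 1, and every interval is a 95% exact interval of the ratio of the reads of both libraries. In HF against RD at ZT18, the median log2 fold was 0.38 and 12 of the 13 mRNAs had the higher value in HF, while the median of all 20311 genes with a mean of at least 1 was −0.00 and 48.0% of them were higher. The 8 mRNAs without a full-length copy lay close together, between 0.26 (mt-Nd1) and 0.48 (mt-Co1, interval 0.48 to 0.49). The exception was mt-Co3, at −0.46 (interval −1.09 to 0.15). Of all genes 27.6% reached a fold of at least 1.5 in either direction. Of the 18 members 1 did, mt-Atp6, at 0.71 (interval 0.49 to 0.94). Here and below, all genes include many of low counts, while no member had a mean under 10. Of the 5597 genes past that fold, 1998 had a mean of at least 10. These shares therefore do not show whether members changed less than genes of like level. Other markers also differed between these libraries at ZT18: liver markers summed to 1369 in HF and 5.66 in RD muscle, adipocyte markers to 2330 in HF and 1069 in RD muscle, and globins to 1989 in HF and 4105 in RD muscle. Their part in these folds was not tested.

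In HF against RD at ZT6 the median log2 fold of the mRNAs was 0.20, and all 13 had the higher value in HF, beside a median of −0.00 for all genes, of which 48.1% were higher. The 8 without a full-length copy lay between 0.06 (mt-Atp8) and 0.24 (mt-Nd4). mt-Rnr1 was lower in HF, at −0.23 (interval −0.27 to −0.18), and mt-Rnr2 differed by 0.04 (interval 0.01 to 0.06). None of the 18 members reached 1.5-fold, against 23.9% of all genes (4852 genes, of which 1516 had a mean of at least 10). At ZT6 adipocyte markers summed to 1835 in HF and 1200 in RD muscle, globins to 1493 in HF and 5138 in RD muscle, and liver markers to 1.996 in HF and 1.33 in RD muscle, and their part in these folds was not tested.

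**Figure D2:**
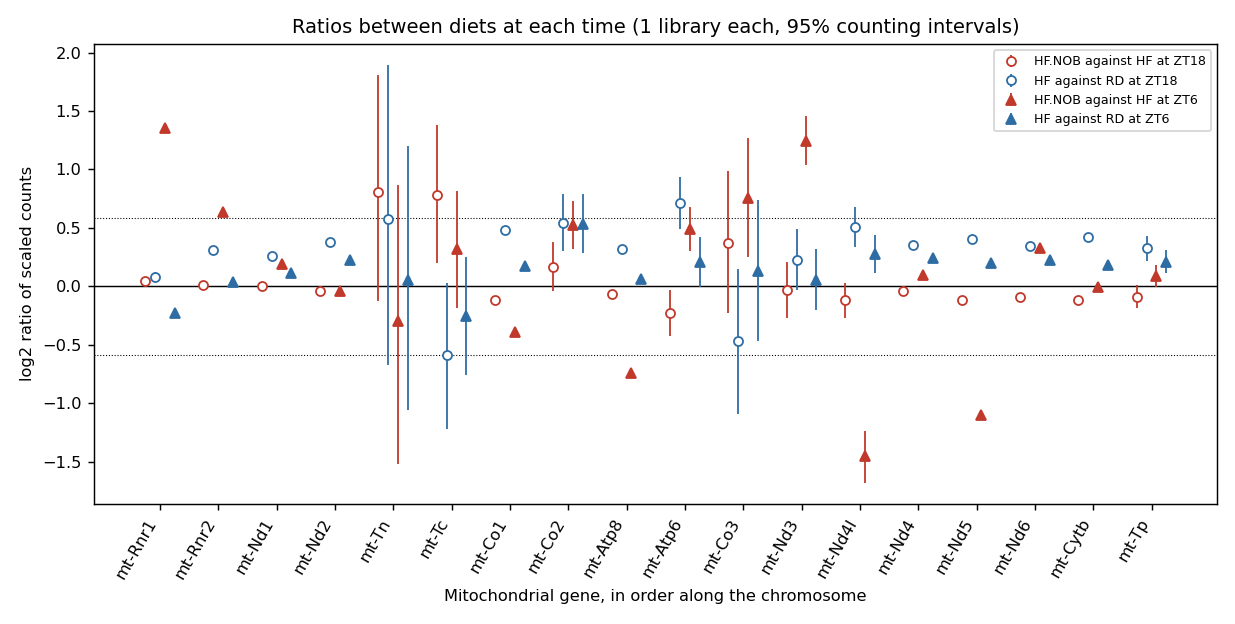
Log2 ratio of scaled counts of each member between diets, in gene order, as open circles at ZT18 and triangles at ZT6, with 95% exact counting intervals and dotted lines at 1.5-fold. HF against RD (blue) lies above 0 for all 8 mRNAs without a full-length nuclear copy at both times, while HF.NOB against HF (red) scatters at ZT6, from −1.45 for mt-Nd4l to 1.35 for mt-Rnr1.

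NOB was then compared with the high-fat diet alone. At ZT18 the median log2 fold of the mRNAs was −0.06, and HF.NOB had the higher value in 3 of 13. The 8 without a full-length copy lay between −0.12 (mt-Nd5) and 0.01 (mt-Nd1), and both rRNAs between 0.01 and 0.04. Across all genes 22% were at least 1.5-fold apart, and among the members 2 were, both tRNAs: mt-Tc at 0.77 (interval 0.20 to 1.38) and mt-Tn at 0.78 (interval −0.12 to 1.81). The interval of mt-Tn includes no difference.

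At ZT6 the members spread in both directions. Their mRNAs had a median log2 fold of 0.10, and HF.NOB had the higher value in 7 of 13. Of all genes 43.4% were at least 1.5-fold apart, and of the 18 members 7 were, 4 higher and 3 lower, so that large folds were common in this pair of libraries. With the folds of nuclear genes of similar length subtracted, 9 of the 18 were at least 1.5-fold lower and 0 higher, and the median of the mRNAs was −0.62. The share of all genes past that fold after the same subtraction is not given here, so these counts have no background. Higher in HF.NOB were mt-Rnr1 at 1.35 (interval 1.32 to 1.39), mt-Nd3 at 1.24 (interval 1.03 to 1.46), mt-Co3 at 0.75 (interval 0.25 to 1.27) and mt-Rnr2 at 0.64 (interval 0.61 to 0.66). Lower were mt-Nd4l at −1.45 (interval −1.68 to −1.24), mt-Nd5 at −1.10 (interval −1.11 to −1.09) and mt-Atp8 at −0.74 (interval −0.76 to −0.71). mt-Co1 was lower by less, at −0.39, and mt-Cytb was at −0.00.

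Ratios between members within a library do not depend on scaling. mt-Nd5 reads were 73.2% of mt-Cytb reads in HF.NOB, 73.5% in HF and 74.7% in RD muscle at ZT18, and 35.2% in HF.NOB (interval 35.0 to 35.5%), 75.2% in HF and 74.2% in RD muscle at ZT6. Set against mt-Nd6, mt-Nd5 stood at 161% in HF.NOB at ZT6 and at 431 to 447% in the other 5 libraries. The mt-Nd5 share was therefore nearly constant in 5 libraries and less than that in 1.

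Other ratios to mt-Cytb moved in the same library. mt-Co1 stood at 144% of mt-Cytb in HF.NOB at ZT6, against 182 to 190% in the other 5, and mt-Atp8 at 5.45%, against 8.28 to 9.87%. mt-Nd6 stood at 21.8%, against 16.4 to 17.4%, and mt-Rnr1 at 4.89%, against 1.91 to 2.996%. mt-Nd2 stood at 61.7%, within the 60.6 to 63.8% of the others. The ratio of mt-Nd3 to mt-Nd4l, which both have a copy, was 239% in HF.NOB at ZT6 and 36.8 to 45.9% elsewhere. Leaving out this 1 library, the span from the lowest to the highest value was 1.32-fold for mt-Nd5, where it was 2.18-fold over all 6, and 1.33-fold for mt-Rnr1, where it was 2.55-fold.

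**Figure D3:**
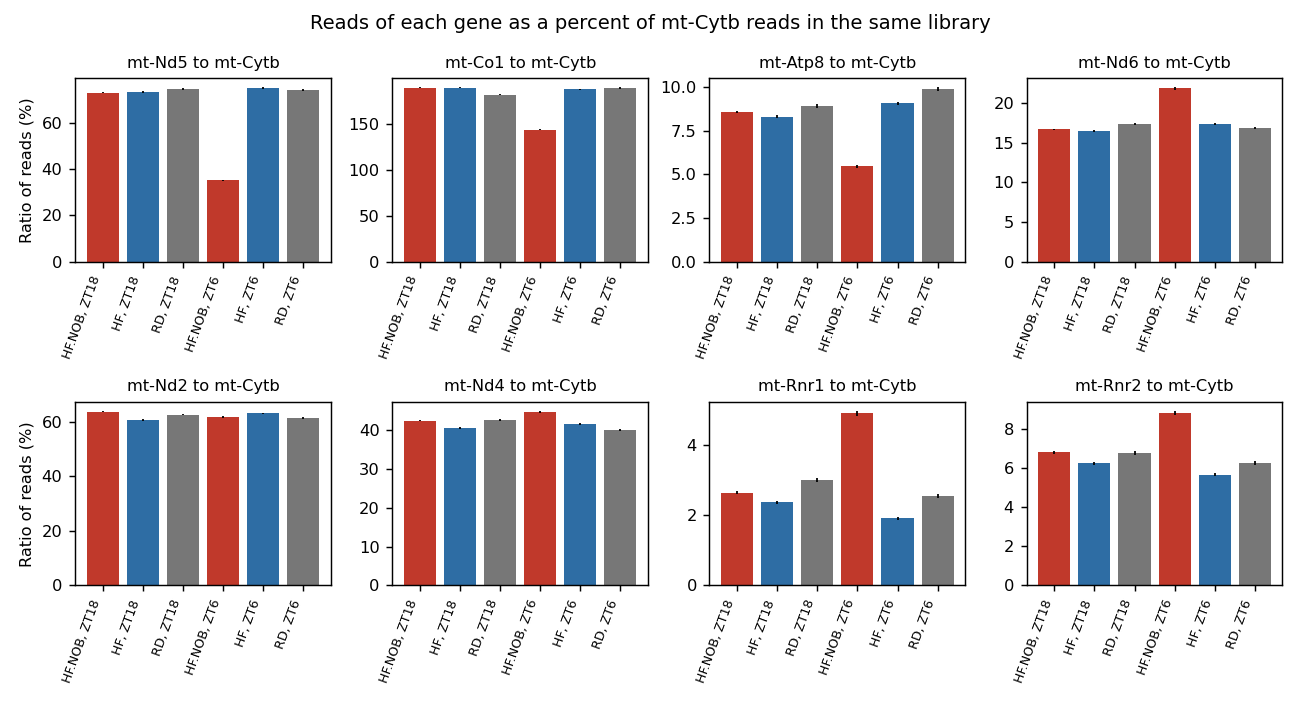
Reads of 8 members as a percent of the mt-Cytb reads of the same library, with 95% exact counting intervals as thin black bars, for HF.NOB (red), HF (blue) and RD (grey) at ZT18 and then at ZT6. The HF.NOB library at ZT6 shows mt-Nd5 at 35.2% where the other 5 lie between 73.2 and 75.2%, and mt-Rnr1 at 4.89% where they lie between 1.91 and 2.996%.

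The folds of that library also moved with transcript length across the nuclear genome, where short transcripts tended to be higher with NOB at ZT6. After the median fold of nuclear protein-coding genes of similar length was subtracted, the 8 mRNAs without a full-length copy lay between −1.61 (mt-Atp8) and −0.53 (mt-Nd4), mt-Rnr1 at 0.54 and mt-Rnr2 at 0.10, and the sign of 10 of the 18 members was kept. Of the 18 members 9 are shorter than 703 bases, the median length of the shortest bin, and received that bin's value. The sums of globins, of adipocyte markers and of macrophage and leukocyte markers were also highest in this library, and the part of length, of RNA quality and of other cells in the pattern was not tested.

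HF.NOB was set against RD as well, with the RD libraries shared with the comparison of HF against RD. At ZT18 the median log2 fold of the mRNAs was 0.31, with 12 of 13 higher in HF.NOB and the 8 without a full-length copy between 0.26 and 0.37. Members at least 1.5-fold apart were mt-Tn at 1.32 and mt-Co2 at 0.71, with 22.5% of all genes past that fold. At ZT6, 9 of the 13 were higher, with a median of 0.31, and 9 of the 18 members were at least 1.5-fold apart, 6 higher and 3 lower, where 44.7% of all genes were. The members past 1.5-fold were mt-Nd3 (1.30), mt-Rnr1 (1.12), mt-Co2 (1.06), mt-Co3 (0.88), mt-Atp6 (0.70) and mt-Rnr2 (0.67), with mt-Nd4l (−1.17), mt-Nd5 (−0.90) and mt-Atp8 (−0.68) on the other side. After subtraction of the length trend the median at ZT6 was −0.42 with 3 of the 13 higher. Of the 18 members 0 were then at least 1.5-fold higher and 6 lower, and the share of all genes after this subtraction is not given.

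Time of day was compared within each diet. In RD muscle 1 of the 13 mRNAs was higher at ZT18 than at ZT6, the median log2 fold was −0.17, and the 8 without a full-length copy lay between −0.33 (mt-Atp8) and −0.09 (mt-Nd4). No member was past 1.5-fold, against 23.5% of all genes. HF muscle showed a median of 0.00, with the 8 between −0.07 and 0.07. There mt-Tc alone was past 1.5-fold, at −0.75, against 22.4% of all genes. In HF.NOB muscle 44.8% of all genes were past 1.5-fold and 7 members were, of which mt-Nd4l (1.34), mt-Nd5 (1.01), mt-Tn (0.97) and mt-Atp8 (0.60) were higher at ZT18 and mt-Nd3 (−1.23), mt-Rnr1 (−0.94) and mt-Co3 (−0.79) lower. After subtraction of the length trend 9 members were at least 1.5-fold higher at ZT18 and 0 lower, and the median of the 13 mRNAs was 0.56, where it was −0.12 without it. These folds rest on the same HF.NOB library at ZT6 as those above. For all genes the share past 1.5-fold after this subtraction is not given. Whether the difference between the times differs between the diets was not tested.

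A fit over both times was added, with edgeR's quasi-likelihood test on whole reads, diet and time as terms and the times standing in as replicates of a diet. It called 0% of 14988 genes at an adjusted p under 0.05 for HF.NOB against HF, 0% for HF against RD and 0% for HF.NOB against RD, so no member was called. At an unadjusted p under 0.05 there were 348, 619 and 562 genes, and 0, 1 and 2 members, where the members were mt-Co2 for HF against RD and mt-Co2 and mt-Atp6 for HF.NOB against RD. DESeq2 called 0, 24 and 18 genes and no member. Without both HF.NOB libraries, edgeR called 7.92% of 14675 genes for HF against RD and 4 of the 18 members, all higher in HF and higher at both times. They were mt-Co2 (log2 fold 0.55, edgeR adjusted p = 0.0099), mt-Nd4l (0.40, adjusted p = 0.0141), mt-Atp6 (0.46, adjusted p = 0.0316) and mt-Tp (0.28, adjusted p = 0.0364). Of these, 3 have a near-identical nuclear copy. The 8 abundant mRNAs had log2 folds of 0.19 to 0.33 in this fit and were not called. At an unadjusted edgeR p under 0.05 this fit had 3244 of the 14675 genes and 10 of the 18 members.

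The nuclear genome supplies the remaining subunits of the same complexes. Medians of a list of such genes, called nuclear subunits here, were set beside those of the members. The CV part of the list includes Atpif1, an inhibitory factor of the ATP synthase rather than a subunit. In HF against RD at ZT18 the nuclear subunits had median log2 folds of 0.18 in CI (33 of 36 higher), 0.30 in CIII (9 of 9), 0.25 in CIV (12 of 13) and 0.23 in CV (14 of 16). The mitochondrial mRNAs of these complexes had 0.35 in CI, 0.43 in CIII, 0.48 in CIV and 0.52 in CV. At ZT6 the nuclear medians were 0.02 in CI, 0.15 in CIII, 0.02 in CIV and 0.03 in CV, and the mitochondrial ones 0.22 in CI, 0.18 in CIII, 0.17 in CIV and 0.13 in CV. Each mitochondrial median was above its nuclear one in these 2 comparisons. The CV median includes the uncertain mt-Atp6, and mt-Atp8 alone stood at 0.32 at ZT18 and 0.06 at ZT6.

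In HF.NOB against HF at ZT6 the order was the other way. All 74 listed nuclear subunits of the 4 complexes were higher in HF.NOB, with medians of 0.82 in CI, 0.81 in CIII, 0.90 in CIV and 0.77 in CV. The mitochondrial medians were 0.10 in CI, −0.00 in CIII, 0.53 in CIV and −0.12 in CV, and mt-Co1 and mt-Atp8, the CIV and CV mRNAs without a full-length copy, stood at −0.39 and −0.74. After subtraction of the length trend the mitochondrial medians were −0.62 in CI, −0.73 in CIII, −0.34 in CIV and −0.99 in CV, and the nuclear ones 0.10 in CI, 0.03 in CIII, 0.05 in CIV and 0.07 in CV. At ZT18 nuclear and mitochondrial medians for HF.NOB against HF were all between −0.15 and 0.17.

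**Figure D4:**
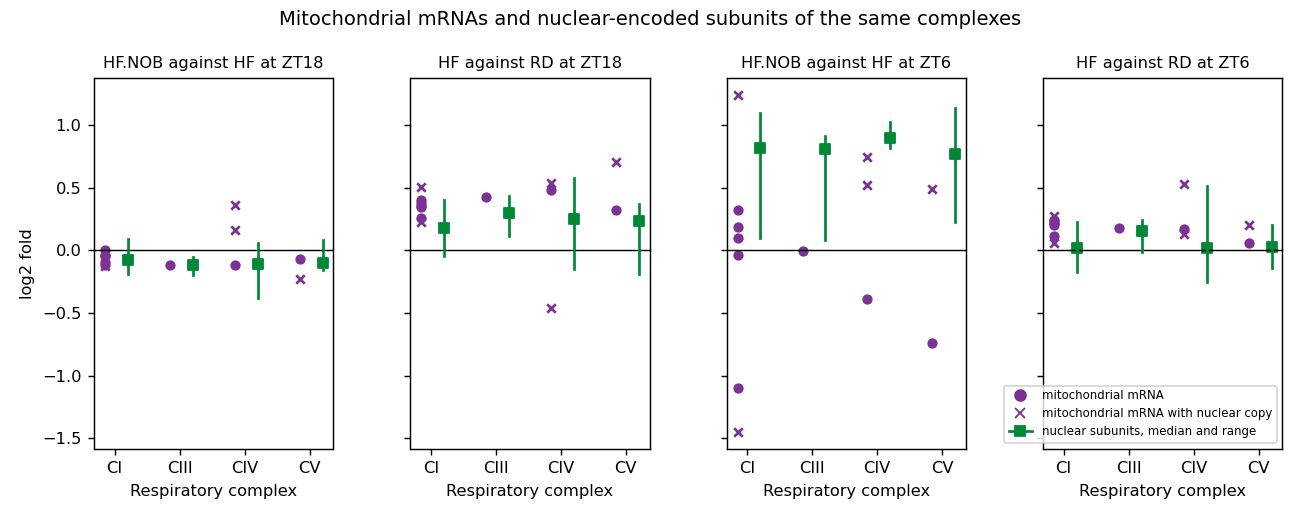
Log2 folds of mitochondrial mRNAs (purple, crosses for those with a near-identical nuclear copy) beside the median and range of the nuclear-encoded subunits (green) for CI, CIII, CIV and CV in 4 comparisons. In HF.NOB against HF at ZT6 the nuclear medians lie between 0.77 and 0.90, while mt-Cytb lies at −0.00 and mt-Nd5 at −1.10.

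Nuclear genes that copy, transcribe and process the mitochondrial genome were described from a list of 48, of which 47 were in the table. In HF.NOB against HF at ZT6 its median log2 fold was 0.20. HF.NOB had the higher value in 35 of the 47, and 8 were at least 1.5-fold higher and none lower. Of all genes 43.4% were past that fold in either direction, a background that includes genes with lower counts than those listed. After subtraction of the length trend 24 of the 47 were higher and the median of the list was 0.04. Polrmt, the mitochondrial RNA polymerase, had 894 in HF.NOB and 905 in HF muscle at ZT6, and Tfam, which packages the genome and starts transcription, 1668 in HF.NOB and 1305 in HF muscle. Lrpprc, which with Slirp stabilises mitochondrial mRNAs, had 3919 in HF.NOB and 4097 in HF muscle. Its partner Slirp was among the highest folds of the list, with 1187 in HF.NOB and 596 in HF muscle (log2 fold 0.99). Values of single genes of this list are given without length adjustment, so whether the partners moved alike was not tested.

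Fastkd5, known in human cells for processing mitochondrial precursor RNA at ends without a tRNA, had 188 in HF.NOB and 99.8 in HF muscle at ZT6. The lowest folds were those of Nsun3, a methyltransferase of a mitochondrial tRNA, with 289 in HF.NOB and 385 in HF muscle, and Fastkd1, with 416 in HF.NOB and 536 in HF muscle. At ZT18 the median of the list was −0.00, and HF.NOB had the higher value in 22 of the 47. In HF against RD the list had medians of 0.03 at ZT18 and 0.05 at ZT6, with 24 and 29 of the 47 higher.

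Of the nuclear copies, 3 had a mean of at least 50. Gm29216, the partial copy of mt-Co1 on chromosome 1 (24615706 to 24616197), had 520 in HF.NOB, 652 in HF and 405 in RD muscle at ZT18, and 816 in HF.NOB, 550 in HF and 491 in RD muscle at ZT6. Gm13340, a copy of mt-Co1 on chromosome 2 (22588103 to 22589647) with 97.6% identity, had 161 in HF.NOB, 166 in HF and 130 in RD muscle at ZT18, and 124 in HF.NOB, 214 in HF and 198 in RD muscle at ZT6. For Gm13340 the HF.NOB library at ZT6 was the lowest of all, while for Gm29216 it was the highest. For mt-Co1 itself that library was the lowest only among those at ZT6, with 733036, and RD muscle at ZT18 was lower, with 722290.

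Gm10925, the copy of mt-Atp6 on chromosome 1 (24613974 to 24614651), differed between libraries far more than any member. It had 582 in HF.NOB, 373 in HF and 18.1 in RD muscle at ZT18, and 25.3 in HF.NOB, 19.96 in HF and 21.4 in RD muscle at ZT6. Its reads amounted to 137% of the mt-Atp6 reads in HF.NOB and 75.1% in HF muscle at ZT18, and to 4.02 to 5.97% in the other 4 libraries. Because the sequences are identical over 678 bases, both genes were also summed. Their sum was 1007 in HF.NOB, 870 in HF and 321 in RD muscle at ZT18. At ZT6 it was 656 in HF.NOB, 468 in HF and 410 in RD muscle. The sum thus separated HF.NOB and HF from RD at ZT18 by more than mt-Atp6 alone, through the reads of Gm10925. It remained far below the 27755 to 46298 of the overlapping mt-Atp8, and whether it gives the level of mt-Atp6 was not tested.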

How the data were processed

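RNA-seq of calf muscle was analysed for 6 conditions with 1 library each. The deposited table holds a normalized signal: by their whole multiples (tolerance 0.001), its values are the authors' gene read counts times 1 factor per library. For alignment the authors used TopHat2 2.0.12 (build mm10), and their notes also list Cufflinks 2.2.1. Not given in the sources used here are the counting tool, its use of strand and its treatment of reads with several positions. Unequal treatment of such reads would change the members with nuclear copies. Depth was 23248663 to 31837501 reads, and intervals cover counting error only.

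Folds were differences of log2(value + 1), counted at 1.5-fold over 20311 genes (minimum mean 1); this fold understates the change of low genes. Genes were joined to GENCODE M21 without identifier versions (99.4% matched). Copies were found with BLAST 2.17.0 among annotated transcripts, and full-length means at least 99% identity over at least 90% of the member. edgeR 4.0.16 (quasi-likelihood test, Benjamini-Hochberg adjustment) and DESeq2 1.42.0 were run on recovered reads. Simulated data of HF.NOB against HF had 1 fixed spread for all genes and equal folds at both times. There edgeR recovered 83.0% of genes changed 2-fold and 100.0% of those changed 4-fold among 14941 genes, with 8 false calls. The spread of the real libraries was not simulated, so these rates do not show what the real fit could detect. The members and lists were chosen with earlier results of these data known. All mRNAs and rRNAs were named, tRNAs with a mean of at least 10, nuclear copies with a mean of at least 50, and from the list of nuclear genes Polrmt, Tfam, Lrpprc and the 2 highest and 2 lowest folds of HF.NOB against HF at ZT6 with a mean of at least 100. The design had allowed for abundances or raw counts, and the deposited scaled values were used as they are. Alternatives were other scalings, pseudocounts of 0.1 and 5, subtraction of a length trend (50 bins over 11147 nuclear protein-coding genes, minimum mean 50), mRNAs of at least 500 bases, other filters and a 2-fold threshold.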

Additional observations from a re-analysis of the deposited data

How the results depend on the processing

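No paired analysis was possible because each condition had 1 library and the labels number no replicates, and no library could be left out of a comparison of 2. The direction of the median log2 fold of the 13 mRNAs held under every alternative in HF against RD, where it lay between 0.19 and 0.28 at ZT6 and between 0.37 and 0.44 at ZT18, highest under RPM scaling (0.28 and 0.44), with 0.25 at ZT6 for the total without mitochondrial and the 20 top nuclear genes. In HF.NOB against HF it was −0.16 at ZT18 under RPM scaling. At ZT6 the median of 0.10 became 0.048 under RPM scaling, 0.064 under median-ratio factors, 0.022 under TMM, 0.11 under upper quartiles, 0.0095 under the reduced total, 0.14 without mRNAs under 500 bases, −0.022 without mRNAs that have a full-length copy and −0.62 after length adjustment. In HF.NOB against RD at ZT6 the median of 0.31 became 0.33, 0.27 and 0.25 under RPM scaling, median-ratio factors and TMM, 0.26 under the reduced total, 0.32 without short mRNAs, 0.18 without copies and −0.42 after length adjustment. For ZT18 against ZT6 the median in RD became −0.10 under RPM scaling and −0.11 after length adjustment, and in HF 0.072 under RPM scaling and −0.0003 under TMM. In HF.NOB it became −0.095, −0.085 and −0.051 under RPM scaling, median-ratio factors and TMM, −0.15 under upper quartiles, −0.063 under the reduced total, −0.18 without short mRNAs, −0.023 without copies and 0.56 after length adjustment. Length adjustment kept the sign of 10 of the 18 members in HF.NOB against HF at ZT6, of 10 in HF.NOB against RD at ZT6 and of 8 for ZT18 against ZT6 in HF.NOB. Among members past 1.5-fold it turned mt-Co3 in HF.NOB against HF at ZT6 (−0.10), mt-Atp6 in HF.NOB against RD at ZT6 (−0.15) and mt-Co3 for ZT18 against ZT6 in HF.NOB (0.087). The cause of these changes was not tested. Genes past 1.5-fold with a mean of at least 10, and past 2-fold, numbered 5224 and 4090 in HF.NOB against HF at ZT6, 1250 and 2327 at ZT18, 1516 and 2579 in HF against RD at ZT6, 1998 and 3177 at ZT18, 5327 and 4801 in HF.NOB against RD at ZT6 and 1413 and 2294 at ZT18. For ZT18 against ZT6 they numbered 1448 and 2696 in RD, 1364 and 2346 in HF and 5412 and 4338 in HF.NOB. With no filter edgeR called 4 genes for HF.NOB against HF, 20 for HF against RD and 6 for HF.NOB against RD. DESeq2 called 24 for HF against RD and 18 for HF.NOB against RD, and without both HF.NOB libraries edgeR called 1162 for HF against RD. Depth limits mt-Tn, mt-Tc and mt-Co3, whose intervals are wide.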
